A study of Homo sapiens with 12 samples.

Results

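Transcripts of 10 BCL2 family genes were followed through the knockdown of LARP4A and of LARP4B in PC3 and MG63 cells. The 10 genes, BCL2, BCL2L1, MCL1, BCL2L11, BBC3, PMAIP1, BAX, BAK1, BID and BIK, were chosen by symbol, and they are 10 of the 26415 gene symbols with a single locus on chromosomes 1 to 22 and X in the deposited tables. Each gene was represented by its transcript model with the highest fragment count summed over the 12 libraries, and all 10 passed edgeR's expression filter. PC3 is a line from a prostate adenocarcinoma and MG63 a line from an osteosarcoma, and the labels give every library a wild-type genotype. Cells of each line were transfected at 10 nM with 1 of 3 kinds of siRNA, a control without a target (siControl), one that targets LARP4A (siLARP4A) or one that targets LARP4B (siLARP4B), using Lipofectamine RNAiMAX in medium free of antibiotics. Poly(A) RNA was taken after 72 h, which gave 6 groups of 2 libraries. LARP4A and LARP4B are paralogous proteins that bind RNA and act on mRNA stability and translation, and the series asks what they contribute to tumour growth and spread. The siRNA sequences are not given in the sources used here, so effects of a single sequence on other targets cannot be told apart from loss of the target, and PC3 and MG63 were kept in different media, so line and medium cannot be told apart either.

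BCL2 family proteins decide whether the outer membrane of the mitochondrion is opened, the step that releases cytochrome c and starts the caspases. Guardians such as BCL2, BCL-XL (made by BCL2L1) and MCL1 hold the effectors BAX and BAK (made by BAK1) in check, and BH3-only proteins such as BIM (BCL2L11), PUMA (BBC3), NOXA (PMAIP1), BID and BIK bind the guardians or the effectors and tip the balance towards pore formation. These proteins are also controlled after transcription, MCL1 and NOXA by rapid turnover, BID by cleavage and BAX by its place in the cell, and the libraries measure none of that.

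What the 10 genes share at the sequence level is the BH3 region, the short helix through which members bind one another. It was sought in coding transcripts of GENCODE 29 on GRCh38 with a pattern. The pattern required a leucine codon, then a glycine or alanine codon directly before an aspartate codon, and set kinds of residue after these. The longest transcript with a match was kept for each of the 10 genes, and it held 1 match. The coding stretches are shown 5′ to 3′, with capitals for the codons of the core, from a leucine codon to the codon pair that usually encodes glycine and aspartate.
BCL2 (chr18:63318346-63318393, minus strand, exon 2): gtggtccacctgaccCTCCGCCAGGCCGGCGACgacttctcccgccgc
BCL2L1 (chr20:31721919-31721966, minus strand, exon 2): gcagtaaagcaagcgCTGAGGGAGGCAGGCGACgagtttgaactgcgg
MCL1 (chr1:150578862-150578909, minus strand, exon 1): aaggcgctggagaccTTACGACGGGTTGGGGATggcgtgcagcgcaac
BCL2L11 (chr2:111150088-111150135, plus strand, exon 3): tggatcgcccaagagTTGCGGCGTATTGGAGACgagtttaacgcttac
BBC3 (chr19:47226576-47226623, minus strand, exon 3): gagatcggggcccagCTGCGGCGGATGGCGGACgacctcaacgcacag
PMAIP1 (chr18:59902658-59902705, plus strand, exon 2): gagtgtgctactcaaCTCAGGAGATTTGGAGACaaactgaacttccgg
BAX (chr19:48955772-48955819, plus strand, exon 3): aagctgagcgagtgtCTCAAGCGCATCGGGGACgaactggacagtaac
BAK1 (chr6:33575384-33575431, minus strand, exon 4): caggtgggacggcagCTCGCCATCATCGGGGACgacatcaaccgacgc
BID (chr22:17739412-17739459, minus strand, exon 4): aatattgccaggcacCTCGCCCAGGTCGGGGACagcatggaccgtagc
BIK (chr22:43127701-43127748, plus strand, exon 3): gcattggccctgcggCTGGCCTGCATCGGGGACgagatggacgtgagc
The leucine codon that opens the capitals and the aspartate codon that closes them were required by the search, so all stretches share them by construction. Before the aspartate codon, where glycine or alanine was allowed, BBC3 has the alanine codon GCG. The other 9 have a glycine codon there (GGA, GGC or GGG).

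The libraries held 16950119 to 24864977 fragments each. LARP4, the gene of LARP4A, fell in the siLARP4A libraries from 19.2 ± 0.344 to 2.41 ± 0.0823 FPKM (fragments per kilobase of model, scaled to the library total; SD, n = 2) in PC3 and from 8.34 ± 0.227 to 2.15 ± 0.0526 in MG63. LARP4B fell in the siLARP4B libraries from 7.10 ± 0.112 to 1.31 ± 0.0633 FPKM in PC3 and from 6.71 ± 0.0925 to 2.05 ± 0.217 in MG63. In MG63, siLARP4B libraries had more LARP4 than siControl libraries, by 0.44 on the log2 scale (SE 0.059, adjusted p 5.2e-06 by edgeR). The summed level of 5 epithelial markers was 796 to 1040 FPKM in PC3 and 54.6 to 72.2 in MG63, that of 5 mesenchymal markers 405 to 515 and 5220 to 5840, and the blood markers HBB and CD3E were listed at 0 in every library.

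The control levels of the family differed between the lines. In PC3 siControl libraries the most abundant member was BCL2L1 at 77.4 ± 1.22 FPKM, followed by MCL1 (65.7 ± 0.188), BAX (50.2 ± 2.08), BAK1 (18.5 ± 1.38), PMAIP1 (14.6 ± 0.761) and BID (12.9 ± 0.922). BCL2L11 (3.17 ± 0.132), BIK (2.73 ± 0.194), BBC3 (1.95 ± 0.333) and BCL2 (1.39 ± 0.0478) stood much lower. In MG63 the order began with MCL1 at 66.6 ± 2.78 FPKM, then BAX (36.7 ± 1.02), BCL2L1 (28.7 ± 0.720), BID (16.0 ± 0.546) and PMAIP1 (11.7 ± 0.193). BAK1 (5.91 ± 0.757), BBC3 (5.02 ± 0.283), BCL2 (0.858 ± 0.111) and BCL2L11 (0.655 ± 0.0467) followed, with BIK last. No neighbours in either order overlapped in their control libraries, but each place rests on 2 libraries. With siControl, 10 of the 10 members differed between PC3 and MG63, against 81.8% of all genes tested, so a difference here was the rule and not particular to the family. BCL2L11 was higher in PC3 by 2.12 on the log2 scale (SE 0.14), BAK1 by 1.49 (SE 0.093) and BCL2L1 by 1.27 (SE 0.059), with edgeR adjusted p of 3.9e-12, 1.1e-12 and 4.4e-15. BBC3 was lower in PC3, by -1.52 (SE 0.16, adjusted p 6.4e-09 by edgeR). The differences of MCL1 (-0.18) and PMAIP1 (0.16) were small: that of MCL1 lost its call with limma on log2(FPKM + 1) (adjusted p 0.62), and that of PMAIP1 with DESeq2 (adjusted p 0.11) and without PC3 siControl replicate 2 (0.09, edgeR adjusted p 0.26), PC3 siLARP4B replicate 2 (0.14, 0.05), MG63 siControl replicate 1 (0.16, 0.065) or MG63 siControl replicate 2 (0.12, 0.17).

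**Figure D1:**
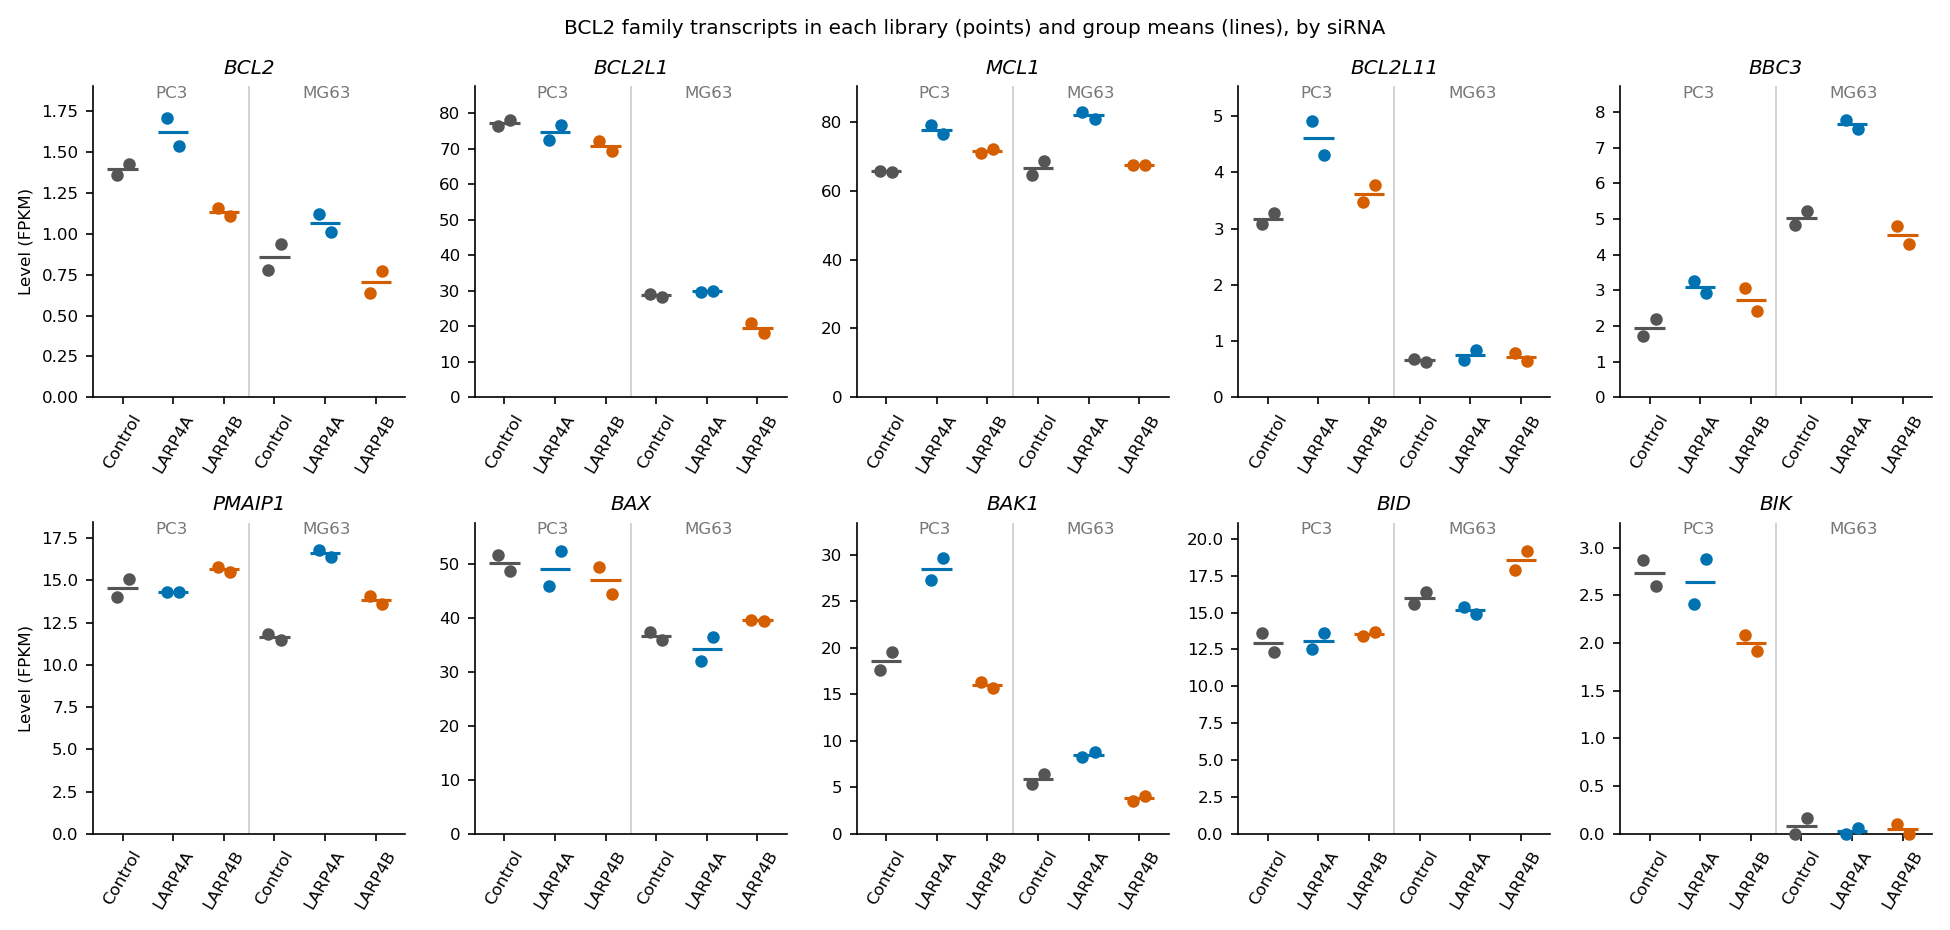
Level of each of the 10 transcripts in FPKM (vertical axis, from 0, a separate scale for each gene) in the 12 libraries, by siRNA and cell line. Points are single libraries and lines are group means of 2 libraries. BAK1 points lie highest with siLARP4A and lowest with siLARP4B in both lines, and BIK lies between 1.92 and 2.88 in PC3 and at or near 0 in MG63.

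Against siControl, 4 of the 10 members passed the threshold (an edgeR adjusted p under 0.05 over all 15669 genes tested) in each of the 4 comparisons. They were different sets of members. With siLARP4A, BAK1, BBC3, BCL2L11 and MCL1 rose in PC3, where 36.0% of all genes passed (17.0% higher and 19.0% lower), and BAK1, BBC3, MCL1 and PMAIP1 rose in MG63, where 26.4% passed (14.5% higher and 11.9% lower). With siLARP4B, BBC3 rose and BAK1, BCL2 and BCL2L1 fell in PC3, against a background of 44.7% (21.3% higher and 23.4% lower). In MG63, BID and PMAIP1 rose and BAK1 and BCL2L1 fell with siLARP4B, against 35.1% (18.8% higher and 16.3% lower). The shares of members called were thus near the background. The 2 comparisons within a line share their siControl libraries, so they are not independent of each other.

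The median log2 fold change of the members other than BIK was 0.22 in PC3 and 0.32 in MG63 with siLARP4A, and 0.03 and 0.05 with siLARP4B. With BIK included the 4 medians were 0.11, 0.28, -0.06 and -0.03, and the median of all genes tested was within 0.01 of 0 in each. In size, the median change of the members other than BIK was 0.22 (PC3) and 0.32 (MG63) with siLARP4A and 0.15 and 0.24 with siLARP4B, beside 0.22 and 0.19 with siLARP4A and 0.28 and 0.23 with siLARP4B for all genes. With BIK included, the median size was 0.14 (PC3) and 0.32 (MG63) with siLARP4A and 0.16 and 0.25 with siLARP4B, so in PC3 it was below that of all genes.

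**Figure D2:**
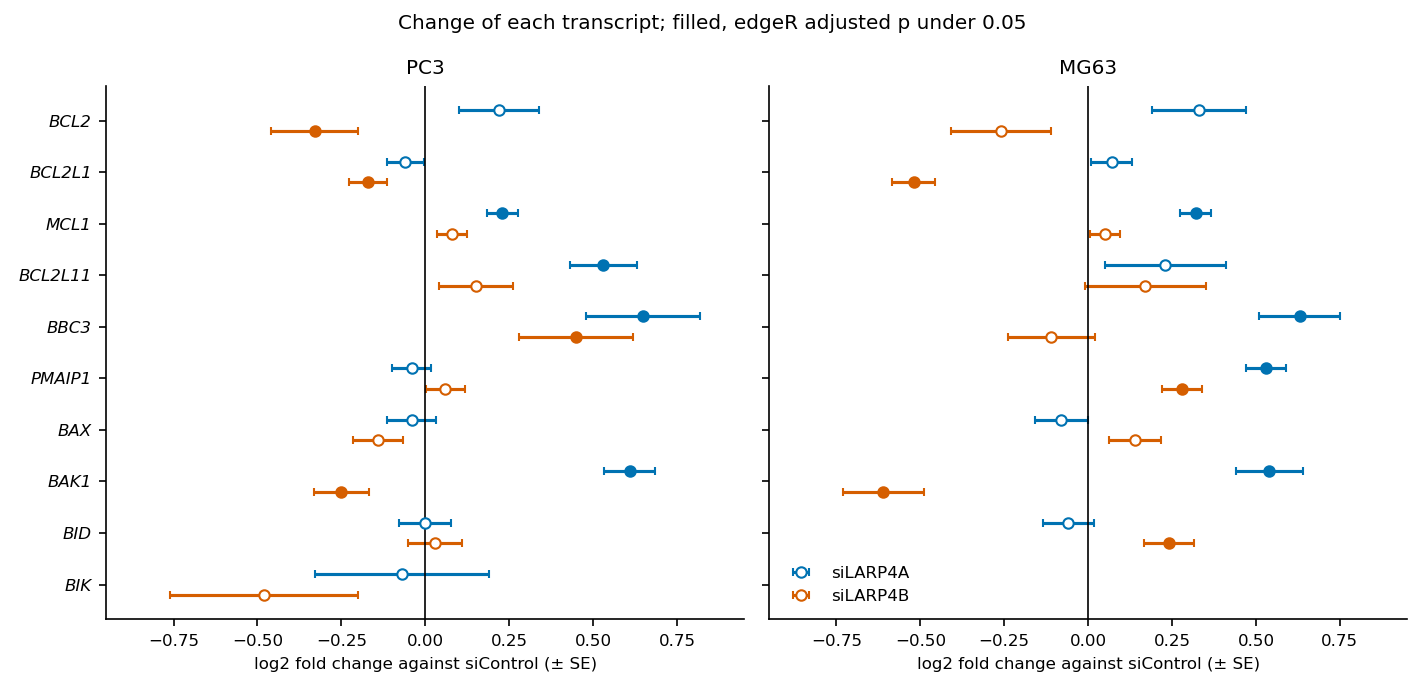
Log2 fold change of each transcript against siControl (horizontal axis) in PC3 and MG63, with siLARP4A in blue and siLARP4B in orange. Bars are standard errors derived from edgeR's F statistic. Filled points passed an adjusted p of 0.05 and open points did not, and BIK is left out of MG63, where it had 0 to 3 fragments per library. BAK1 is the member whose siLARP4A and siLARP4B points lie furthest apart in both lines, at 0.61 and -0.25 in PC3 and 0.54 and -0.61 in MG63.

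Among the guardians, MCL1 rose with siLARP4A in both lines. Its level was 65.8 and 65.5 FPKM in the siControl libraries of PC3, 79.2 and 76.5 with siLARP4A, and 71.1 and 72.1 with siLARP4B. Its MG63 level was 64.7 and 68.6 with siControl, 82.9 and 81.0 with siLARP4A, and 67.6 and 67.5 with siLARP4B. The siLARP4A libraries stood above all other libraries of their line. The rise was 0.23 on the log2 scale in PC3 (SE 0.045, adjusted p 0.00024 by edgeR) and 0.32 in MG63 (SE 0.045, adjusted p 1.2e-05 by edgeR), which is 118% and 125% of the control level. With siLARP4B the changes were 0.08 and 0.05 and did not pass.

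BCL2L1, which encodes the guardian BCL-XL, fell with siLARP4B. In MG63 it stood at 29.2 and 28.2 FPKM with siControl, 29.7 and 29.9 with siLARP4A, and 21.0 and 18.2 with siLARP4B. Both siLARP4B libraries lay below the other 4, a change of -0.52 on the log2 scale (SE 0.064, adjusted p 1.5e-06 by edgeR), to 69.7% of the control level. In PC3 the levels were 76.5 and 78.2, 72.6 and 76.7, and 72.2 and 69.5, so the siLARP4B libraries lay just below the siLARP4A range. The PC3 change of -0.17 (SE 0.056, adjusted p 0.017 by edgeR) was smaller, and the difference between lines in the siLARP4B effect was 0.35 (SE 0.085, adjusted p 0.0034 by edgeR). The PC3 call was lost with DESeq2 (adjusted p 0.055), and the change without 1 PC3 library ranged from -0.16 to -0.11 with edgeR adjusted p of 0.088 without siLARP4B replicate 1, 0.24 without siLARP4B replicate 2, 0.12 without siControl replicate 1 and 0.16 without siControl replicate 2. Limma on log2(FPKM + 1) (adjusted p 0.13) and edgeR on the longest transcript model (adjusted p 0.054) did not make the PC3 call either. BCL2L1 overlaps the gene ABALON on the other strand, and the handling of strand was not given in the sources used here, so fragments of the pair cannot be told apart.

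BCL2 itself was the rarest guardian, at 1.11 to 1.71 FPKM in PC3 and 0.638 to 1.12 in MG63, and it took at most 1.12% of the summed FPKM of BCL2, BCL2L1 and MCL1 in any library. It was 1.36 and 1.43 FPKM with siControl, 1.71 and 1.54 with siLARP4A and 1.16 and 1.11 with siLARP4B in PC3. The MG63 values were 0.779 and 0.936, 1.12 and 1.01, and 0.638 and 0.770. The siLARP4A libraries stood above the siLARP4B libraries in both lines, by a log2 difference of 0.55 in PC3 (SE 0.13, adjusted p 0.00079 by edgeR) and 0.59 in MG63 (SE 0.15, adjusted p 0.0026 by edgeR). Against siControl only the PC3 siLARP4B change passed, at -0.33 (SE 0.13, adjusted p 0.044 by edgeR), and 12 of 21 alternatives to the processing ended that call, 6 of them by leaving out any 1 of the 6 PC3 libraries, with edgeR adjusted p of 0.062 to 0.22.

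The composition of the guardian transcripts differed between lines in every library. MCL1 made up 45.1 to 51.6% of the summed FPKM of the 3 in PC3 and 68.3 to 78.1% in MG63, and its share was lowest with siControl in both lines. The ratio of BCL2L1 to MCL1 within a library was 1.16 and 1.19 with siControl in PC3, 0.917 and 1.00 with siLARP4A, and 1.01 and 0.964 with siLARP4B. The same ratio in MG63 was 0.452 and 0.411, 0.358 and 0.369, and 0.311 and 0.269. Both knockdowns thus stood below siControl in each line, although MCL1 was the gene that moved with siLARP4A and BCL2L1 the gene that moved with siLARP4B in MG63. These ratios are given as levels, with no test of their own.

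Of the BH3-only members, BBC3, which encodes PUMA, rose with siLARP4A in both lines. In PC3 its level was 1.72 and 2.19 FPKM with siControl, 3.25 and 2.91 with siLARP4A, and 3.05 and 2.43 with siLARP4B. In the same order, MG63 libraries were at 4.82 and 5.22, 7.78 and 7.53, and 4.81 and 4.31. The siLARP4A libraries did not overlap siControl in either line, and in MG63 they stood above all others. The siLARP4A change was 0.65 on the log2 scale in PC3 (SE 0.17, adjusted p 0.0036 by edgeR) and 0.63 in MG63 (SE 0.12, adjusted p 0.0006 by edgeR), and the difference between lines was 0.02 (approximate 95% interval -0.38 to 0.42, edgeR adjusted p 0.99). The PC3 rise rests on 57 and 77 control fragments, and without PC3 siControl replicate 1 it was 0.53 with an edgeR adjusted p of 0.051. With siLARP4B, BBC3 rose by 0.45 in PC3 (SE 0.17, adjusted p 0.04 by edgeR), a call that was lost in 9 of 21 alternatives, among them DESeq2 (adjusted p 0.089). Leaving out PC3 siControl replicate 1 (0.33, edgeR adjusted p 0.22), PC3 siLARP4B replicate 1 (0.30, 0.3) or any single siControl or siLARP4A library of MG63 (0.44, 0.053 to 0.056) also ended it. In MG63 the siLARP4B change was -0.11 and did not pass. The micro-RNA genes MIR3190 and MIR3191 lie within BBC3, the first on the other strand.

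BCL2L11, which encodes BIM, rose with siLARP4A in PC3. Its levels there were 3.08 and 3.27 FPKM with siControl, 4.91 and 4.31 with siLARP4A, and 3.47 and 3.77 with siLARP4B. Both siLARP4A libraries stood above the other 4, and the rise was 0.53 on the log2 scale (SE 0.10, adjusted p 0.00025 by edgeR). Against siLARP4B it was 0.39 (SE 0.10, adjusted p 0.0023 by edgeR), a difference that was 0.28 with an edgeR adjusted p of 0.054 without PC3 siLARP4A replicate 1 and 0.32 with 0.052 without PC3 siLARP4B replicate 1. In MG63 the gene was at 0.622 to 0.845 FPKM in all 6 libraries, from 61 to 82 fragments, and the changes of 0.23 and 0.17 did not pass. The difference between lines in the siLARP4A effect was 0.30 (approximate 95% interval -0.12 to 0.71, edgeR adjusted p 0.44), so the rise was not shown to be limited to PC3.

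PMAIP1, which encodes NOXA, a BH3-only protein that binds MCL1, moved in MG63. It stood at 11.8 and 11.5 FPKM there with siControl, 16.8 and 16.4 with siLARP4A, and 14.1 and 13.6 with siLARP4B. The 3 groups did not overlap. In PC3 it was 14.0 and 15.1 with siControl, 14.3 and 14.3 with siLARP4A and 15.8 and 15.5 with siLARP4B, where the siLARP4A libraries lay within the control range. The MG63 rise was 0.53 on the log2 scale with siLARP4A (SE 0.059, adjusted p 6.2e-07 by edgeR) and 0.28 with siLARP4B (SE 0.060, adjusted p 0.00095 by edgeR), while the PC3 changes were -0.04 and 0.06. The siLARP4A effect differed between lines by -0.57, PC3 minus MG63 (SE 0.083, adjusted p 8.4e-05 by edgeR). It was the only 1 of the 10 members called for that difference, against 11.4% of all genes. For siLARP4B, the PMAIP1 difference between lines was -0.22 (SE 0.084, adjusted p 0.059 by edgeR), and BCL2L1 was the only member called, against 27.8% of all genes.

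BID, which links death receptors to mitochondria once caspase 8 has cut it, lay between 12.3 and 13.7 FPKM in PC3, where neither knockdown moved it past the threshold. In MG63 it was 15.6 and 16.4 FPKM with siControl, 15.4 and 14.9 with siLARP4A, and 17.9 and 19.2 with siLARP4B. The siLARP4B libraries were the highest, with a change of 0.24 on the log2 scale (SE 0.074, adjusted p 0.014 by edgeR). That call was lost with DESeq2 (adjusted p 0.057), without MG63 siControl replicate 1 (0.20, edgeR adjusted p 0.12) and without MG63 siLARP4B replicate 2 (0.18, edgeR adjusted p 0.14). MIR3198-1 lies within BID on the same strand.

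BIK, another BH3-only gene, separated the lines. It had 96 fragments in the 2 siControl libraries of PC3 and 3 in those of MG63, a ratio per library total of 32.2 (95% exact interval 10.7 to 159, for counting error alone). Over all 6 MG63 libraries it had 6 fragments, so no change with either siRNA was detectable there. In PC3 it was 2.87 and 2.60 FPKM with siControl, 2.41 and 2.88 with siLARP4A and 2.09 and 1.92 with siLARP4B. The siLARP4B libraries were the lowest 2, and their change of -0.48 on the log2 scale (SE 0.28, adjusted p 0.18 by edgeR) did not pass with 31 to 57 fragments per library, but limma on log2(FPKM + 1) called it at -0.31 (adjusted p 0.032).

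BAK1 was the one member that passed against siControl in all 4 comparisons, in opposite directions for the 2 siRNAs. In PC3 it stood at 17.6 and 19.5 FPKM with siControl, 27.3 and 29.7 with siLARP4A, and 16.3 and 15.7 with siLARP4B. In MG63 it stood at 5.37 and 6.44, 8.23 and 8.76, and 3.57 and 4.06. In each line the order was siLARP4A above siControl above siLARP4B, with no overlap between groups. The siLARP4A rise was 0.61 on the log2 scale in PC3 (SE 0.076, adjusted p 1.5e-06 by edgeR) and 0.54 in MG63 (SE 0.10, adjusted p 0.0004 by edgeR), that is 1.53-fold and 1.45-fold. With siLARP4B it fell by 0.61 in MG63 (SE 0.12, adjusted p 0.00032 by edgeR), to 65.7% of control. The PC3 fall with siLARP4B was smaller, at -0.25 (SE 0.081, adjusted p 0.014 by edgeR), and was not called by DESeq2 (adjusted p 0.076) or without PC3 siControl replicate 2 (-0.15, edgeR adjusted p 0.26), PC3 siLARP4B replicate 1 (-0.24, 0.081) or PC3 siLARP4B replicate 2 (-0.20, 0.15). Limma on log2(FPKM + 1) did not call the PC3 fall either (-0.2, adjusted p 0.1). Set directly against siLARP4B, siLARP4A libraries held 1.82-fold more BAK1 in PC3 (0.86, SE 0.077, adjusted p 3.3e-09 by edgeR) and 2.22-fold more in MG63 (1.15, SE 0.11, adjusted p 2.4e-08 by edgeR).

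BAX, the other effector, moved little against siControl. It lay between 44.5 and 52.4 FPKM in PC3 and between 32.0 and 39.7 in MG63, with overlapping groups in PC3. The changes against siControl were -0.04 and -0.14 in PC3 and -0.08 and 0.14 in MG63 for siLARP4A and siLARP4B, with an approximate 95% interval of -0.19 to 0.10 for the first and -0.01 to 0.29 for the last. In MG63 the siLARP4A libraries (32.0 and 36.5) were below the siLARP4B libraries (39.7 and 39.5), a difference of -0.22 (SE 0.077, adjusted p 0.026 by edgeR) that was -0.13 without MG63 siLARP4A replicate 1 (edgeR adjusted p 0.31) and -0.22 without either siLARP4B library (edgeR adjusted p 0.08 and 0.067).

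The ratio of the effector transcripts followed BAK1. BAK1 over BAX was 0.34 and 0.40 in the siControl libraries of PC3, 0.595 and 0.567 with siLARP4A, and 0.329 and 0.353 with siLARP4B. The MG63 ratios were 0.144 and 0.179, 0.257 and 0.240, and 0.0901 and 0.103. The siLARP4A libraries were the highest of each line, the siLARP4B libraries were the lowest of MG63, and siControl and siLARP4B overlapped in PC3.

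**Figure D3:**
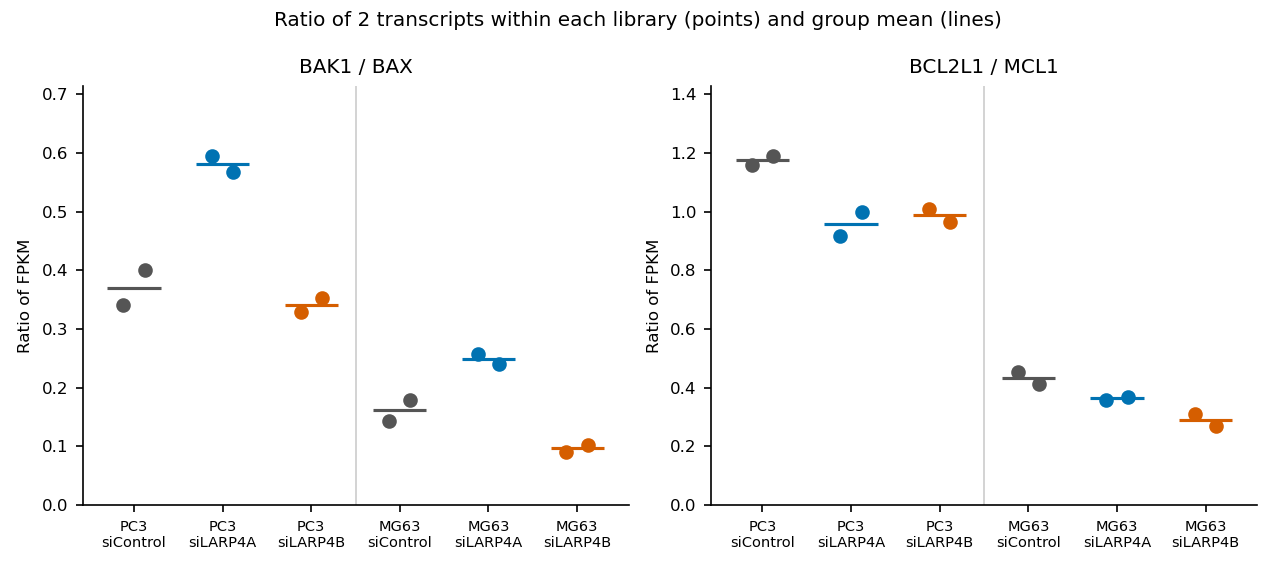
Ratio of BAK1 to BAX (left) and of BCL2L1 to MCL1 (right) in FPKM within each library (vertical axes from 0, points) and the mean of each group of 2 libraries (lines), by line and siRNA. BAK1 over BAX is 0.567 and 0.595 in PC3 siLARP4A libraries against 0.34 and 0.40 in siControl, and BCL2L1 over MCL1 is lower in every knockdown library than in the siControl libraries of its line.

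The 2 knockdowns were also set against each other, a comparison of group means that leaves out those of siControl. The siControl libraries still entered the filter, the scaling and the spread of the shared fit. In PC3, 4 of the 10 members differed, BAK1, BCL2, BCL2L11 and MCL1, all higher with siLARP4A, against 54.2% of all genes. The MCL1 difference there was 0.15 on the log2 scale (SE 0.044, adjusted p 0.0062 by edgeR) and 0.13 without PC3 siLARP4B replicate 1 (edgeR adjusted p 0.067). In MG63, 8 of the 10 differed, against 43.6% of all genes. BAK1, BBC3, BCL2, BCL2L1, MCL1 and PMAIP1 were higher with siLARP4A and BAX and BID were lower. BBC3 differed by 0.74 (SE 0.13, adjusted p 5e-05 by edgeR) and BCL2L1 by 0.60 (SE 0.064, adjusted p 1.2e-07 by edgeR), so both a pro-apoptotic and an anti-apoptotic transcript stood higher with siLARP4A than with siLARP4B in MG63.

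Promoters are shown for BAK1, which moved in both lines, and PMAIP1, whose siLARP4A response differed between lines. The 250 bases before each start site are given 5′ to 3′ in the gene's direction, from RefSeq on GRCh38.p14, and both start sites match the start of the deposited transcript model. Capitals mark matches on either strand to CCAAT (the CCAAT box), GGGCGG (the GC box), ACGTCA (the core of the cyclic AMP and ATF element) or CACGTG (the E-box), and none of these motifs holds another.
BAK1 (chr6:33580277-33580526, minus strand): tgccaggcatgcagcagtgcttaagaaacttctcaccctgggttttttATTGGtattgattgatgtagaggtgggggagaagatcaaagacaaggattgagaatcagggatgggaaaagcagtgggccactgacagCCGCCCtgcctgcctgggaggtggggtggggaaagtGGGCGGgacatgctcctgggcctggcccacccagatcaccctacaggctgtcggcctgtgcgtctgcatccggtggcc
PMAIP1 (chr18:59899746-59899995, plus strand): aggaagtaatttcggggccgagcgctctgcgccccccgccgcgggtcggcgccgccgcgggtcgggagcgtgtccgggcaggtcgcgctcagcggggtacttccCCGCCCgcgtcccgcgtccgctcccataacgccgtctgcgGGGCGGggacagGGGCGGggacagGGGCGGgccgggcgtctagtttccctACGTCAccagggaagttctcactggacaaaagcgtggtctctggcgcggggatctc
BAK1 had 1 CCAAT match and 2 GGGCGG matches, and PMAIP1 had 4 GGGCGG matches and 1 ACGTCA match. Over all 35116 RefSeq windows of the same length, CCAAT was found in 32.0%, GGGCGG in 42.6%, ACGTCA in 7.1% and CACGTG in 6.3%. Of the 10 members, 8 were matched in the RefSeq promoter table.

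Genes that work beside the family were counted by lists of their roles, and 6 such lists are given. The lists were chosen with earlier results of these data known, so the counts describe them and do not test them. Each count is to be read beside the share of all genes called. With siLARP4A that share was 17.0% higher and 19.0% lower in PC3, and 14.5% and 11.9% in MG63. With siLARP4B it was 21.3% higher and 23.4% lower in PC3, and 18.8% and 16.3% in MG63. Counts near these shares are not particular to a list. Of the 48 counts higher or lower in these lists, 22 moved by more than 1.5 times, or to or from 0, when 1 of the libraries was left out, all of them counts of 4 or fewer genes, so the small counts are descriptions of these libraries. Of 10 tested genes that act on the turnover or phosphorylation of MCL1 and BH3-only proteins, 9 fell and 0 rose with siLARP4B in PC3 by edgeR (0 higher at an unadjusted p under 0.05, and 0 higher by DESeq2 and limma, which called 7 and 8 lower). The list's median was -0.47, beside 0.0 over all genes tested. Without PC3 siLARP4B replicate 1, 6 were called lower. BTRC, the F-box protein of a ubiquitin ligase, fell by 0.80 on the log2 scale (SE 0.092, adjusted p 2.4e-07 by edgeR) and MAPK8, which encodes the kinase JNK1, fell by 0.62 (SE 0.15, adjusted p 0.0014 by edgeR). BTRC was also called lower with siLARP4B in MG63 (-0.48) and higher with siLARP4A in PC3 (0.42) and MG63 (0.53). AURKA, a mitotic kinase, fell with siLARP4A in both lines (-0.68 in PC3 and -0.76 in MG63) and with siLARP4B in PC3 (-0.84), and it rose with siLARP4B in MG63 (0.19, SE 0.054, adjusted p 0.0086 by edgeR; adjusted p 0.2 without MG63 siControl replicate 1). With siLARP4A, 2 of the 10 rose and 1 fell in PC3 and 3 rose and 1 fell in MG63, and with siLARP4B in MG63 1 rose and 2 fell. Without PC3 siLARP4A replicate 2, 5 rose with siLARP4A in PC3.

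Of 12 transcription factors known to act on BH3-only genes, 4 rose and 2 fell with siLARP4A in PC3, 3 rose and 2 fell with siLARP4B in PC3, and 1 rose and 1 fell with siLARP4A in MG63. With siLARP4B in MG63, 5 fell. Without PC3 siControl replicate 1 or siLARP4A replicate 1, or either PC3 siLARP4B library, both lower calls with siLARP4A in PC3 were lost, and with all libraries kept DESeq2 called 0 lower and limma 1 (3 at an unadjusted p under 0.05 in edgeR). Without PC3 siLARP4A replicate 2, 5 rose with siLARP4B in PC3. ATF3, a stress-response factor, rose with siLARP4A from 12.2 ± 0.335 to 20.6 ± 0.297 FPKM in PC3 (0.75 on the log2 scale, SE 0.074, adjusted p 5.7e-08 by edgeR) and from 2.42 ± 0.0938 to 4.92 ± 0.455 in MG63 (1.04, SE 0.12, adjusted p 7.9e-07 by edgeR). ATF3 also rose with siLARP4B in PC3 (0.37, SE 0.077, adjusted p 0.0004 by edgeR). Its siLARP4B change of 0.29 in MG63 did not pass. E2F1, a cell cycle factor, fell with siLARP4B by 1.31 in PC3 and 0.54 in MG63. TP73 fell with siLARP4B in MG63 from 4.25 ± 0.0148 to 2.55 ± 0.108 FPKM (-0.71, edgeR adjusted p 7e-06) and averaged 0.0808 to 0.134 FPKM in the PC3 groups.

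Of 10 other family genes tested (13 listed), 2 rose and 4 fell with siLARP4A in PC3, 2 rose and 2 fell with siLARP4B in PC3 and with siLARP4A in MG63, and 2 rose and 3 fell with siLARP4B in MG63. Leaving out PC3 siLARP4B replicate 2 or either PC3 siLARP4A library gave 4 higher with siLARP4B in PC3, and leaving out PC3 siControl replicate 2 gave 2 lower with siLARP4A. In MG63, each count of 2 higher (2 also at an unadjusted p under 0.05 in edgeR) was 1 with DESeq2 and 0 with limma. BMF, a BH3-only gene, rose with both siRNAs in PC3, by 0.78 (SE 0.19, adjusted p 0.0025 by edgeR) and 1.65 (SE 0.18, adjusted p 9.8e-08 by edgeR), from 0.756 ± 0.0721 FPKM. It also rose with siLARP4A in MG63, by 1.91 (SE 0.42, adjusted p 0.0015 by edgeR) from 0.0797 ± 0.0294 to 0.301 ± 0.0457 FPKM, with 5 fragments in the lowest siControl library and 29 in the highest siLARP4A library. Its adjusted p there was 0.075 with limma. BNIP3, a gene of mitophagy induced by hypoxia, was lower in both PC3 knockdowns (-1.22 and -1.20) and in MG63 with siLARP4A (-0.60), from 104 ± 2.24 FPKM in PC3 and 90.0 ± 4.43 in MG63. BOK, an effector-like member, fell in MG63 with siLARP4B by 0.89 (SE 0.20, adjusted p 0.0015 by edgeR).

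Downstream and upstream of mitochondria these 3 lists were mixed. Of 14 genes of the apoptosome and caspases, 3 rose and 3 fell with siLARP4A in PC3, 1 rose and 3 fell with siLARP4A in MG63, 4 fell with siLARP4B in PC3, and 4 rose and 2 fell with siLARP4B in MG63. Without either PC3 siLARP4A library, 5 were also called higher with siLARP4B in PC3. APAF1, the scaffold of the apoptosome, rose by 0.54 with siLARP4B in MG63 (SE 0.084, adjusted p 2.7e-05 by edgeR), and CASP6 fell by 1.13 with siLARP4B in PC3 (SE 0.15, adjusted p 1.4e-06 by edgeR). CASP6 rose with siLARP4A in PC3 (0.42, SE 0.12, adjusted p 0.0096 by edgeR), a call that limma did not make. Of 7 inhibitors of apoptosis, 2 rose and 1 fell with siLARP4A in PC3, 3 rose with siLARP4A in MG63, 2 rose and 2 fell with siLARP4B in PC3, and 1 rose and 2 fell with siLARP4B in MG63. BIRC3 rose from 1.25 ± 0.0796 to 4.28 ± 0.264 FPKM with siLARP4A in MG63 (1.79, SE 0.10, adjusted p 4.1e-11 by edgeR), and BIRC5, which encodes survivin, fell from 83.3 ± 2.74 to 39.6 ± 1.93 FPKM with siLARP4B in PC3 (-1.11, SE 0.051, adjusted p 1.2e-13 by edgeR). BIRC3 also rose with siLARP4B in PC3 (0.9, SE 0.15, adjusted p 4.1e-05 by edgeR). Of 7 death receptor genes tested (9 listed), 1 rose and 2 fell with siLARP4A in PC3, 1 rose with siLARP4A in MG63, 2 rose and 1 fell with siLARP4B in PC3, and 2 rose and 3 fell with siLARP4B in MG63. The last count was 0 to 1 by edgeR without any 1 siControl or siLARP4B library of MG63. TNFRSF10A, a receptor for the ligand TRAIL, rose with siLARP4A by 0.56 in PC3 and 1.01 in MG63, while FAS rose with siLARP4B by 0.67 in PC3 and 0.64 in MG63. TNFRSF10A was lower with siLARP4B in MG63 (-0.37, SE 0.14, adjusted p 0.045 by edgeR), a call that DESeq2 did not make.

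**Figure D4:**
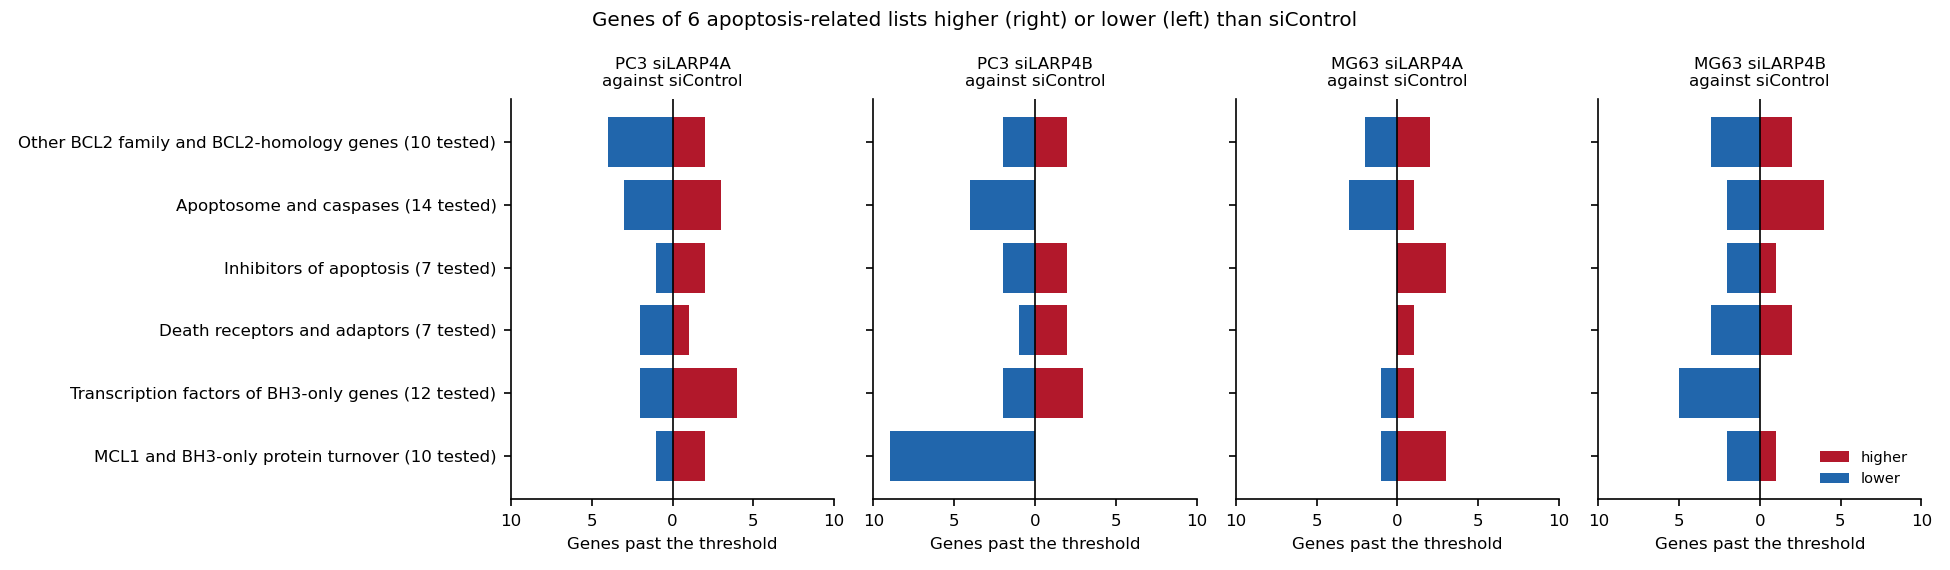
Number of genes past the threshold against siControl in 6 lists of apoptosis-related genes, higher to the right and lower to the left (horizontal axis, number of genes), with the number tested after each list's name. The turnover bar reaches 9 lower of 10 tested with siLARP4B in PC3, where 23.4% of all genes tested were called lower. The lists were chosen with earlier results of these data known.

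Genes with the pattern most like that of the 3 members with the largest called changes against siControl were sought by the Pearson correlation of log2 CPM over the 12 libraries, after the mean of each line was subtracted, among about 10700 genes. The points share libraries, so the values describe these libraries alone. For BAK1 the closest were IL27RA and FAM171A1, both at r = 0.97. For BBC3 they were PSEN2 and FYCO1, both at r = 0.96, and for BCL2L11 FAM171A2 (r = 0.91) and RBM38-AS1 (r = 0.88).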

How the data were processed

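Each library had 1 deposited table of transcript models. Per the file headers, the authors gave for each model a fragment count, an FPM value (a coverage signal, the count scaled to 1 library total) and an FPKM value (FPM per kilobase of model). The submitters' processing notes name hg38, FastQC, HISAT2, featureCounts and edgeR, without roles or versions. Annotation and strand handling were not given in the sources used here. A fragment in an exon shared by models counts in each, so deposited FPM values summed to 3.20 to 3.45 times the scaled total, and the model with the most fragments stood for a gene. Symbols at several loci, 1748 of 28163, were left out.

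Counts of 15669 genes passing filterByExpr were tested two-sided with edgeR 4.0.16 under R 4.3.3, by its quasi-likelihood F-test, with TMM scaling and 1 fit of the 12 libraries with a mean per group. The tests covered 9 comparisons, with Benjamini-Hochberg adjustment within each and a threshold of 0.05. The edgeR SE was derived as the size of the log2 change divided by the square root of the F statistic, so it is approximate. Intervals are the log2 change ± 1.96 SE. The biological coefficient of variation was 4.21%, and with 2 libraries per group the spread was borrowed across groups and genes. The series calls the replicates biological, but the labels do not tie libraries to separate cultures, so p-values measure only the spread between these libraries. Replicates differed by more than counting error (chi-square per degree of freedom 1.63 to 6.28) and were all kept. The fit was also run on counts simulated for PC3 siLARP4A against siControl, with 1 spread for all genes and groups, unlike these libraries. It recovered 73% of 100 changes of 1.5-fold and 91% of 100 changes of 2-fold, and called 6 unchanged genes. Far fewer genes were changed in the simulation than the 36.0% called in that comparison here, so its recovery rates do not carry over. Changes of the size of most members here may still be missed, at a rate that was not measured. The 21 alternatives included DESeq2 1.42.0, limma 3.58.1, other filters, a further deduplicated table of PC3 siControl replicate 2 and each library left out.

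All 10 members are named. A further list and some genes are not reported here. Of each list, the text names up to 3 genes, those with the largest called change in any of the 4 comparisons against siControl; genes in a list's tally are named where the tally turns on them. The members and the lists were chosen with earlier results of these data known. BH3 stretches came from GENCODE 29 and promoters from RefSeq, both on GRCh38; the tables' coordinates matched that build.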

Additional observations from a re-analysis of the deposited data

Results flagged for a closer look

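In 2 members the effect of an siRNA differed between the cell lines by the test of the difference itself (edgeR's quasi-likelihood test, Benjamini-Hochberg adjustment). For PMAIP1 the siLARP4A effect in PC3 minus that in MG63 was -0.57 on the log2 scale (SE 0.083, adjusted p 8.4e-05 by edgeR): 2 of 2 MG63 siLARP4A libraries stood above both siControl libraries, and both PC3 siLARP4A libraries lay within the control range. The value ranged from -0.58 to -0.48 over the 21 alternatives, with adjusted p of 6.9e-07 to 0.0029. For BCL2L1 the siLARP4B effect differed by 0.35 (SE 0.085, adjusted p 0.0034 by edgeR), from 0.25 to 0.46 over the alternatives with adjusted p of 0.00024 to 0.034; it was lower in 2 of 2 siLARP4B libraries of each line, and further below control in MG63. With siLARP4B, LARP4 changed by 0.44 in MG63 and stood at -0.07 in PC3, and its part in the BCL2L1 difference was not tested.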

How the results depend on the processing

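Over the 21 alternatives, 1815 of 1887 member values kept their side of the threshold, 50 lost the call, 22 gained it and 0 of the called values changed sign; 52 of the 1815 changed sign while uncalled in both fits. The calls of BAK1, BCL2L11 and MCL1 (PC3, siLARP4A), of BAK1, BBC3, MCL1 and PMAIP1 (MG63, siLARP4A) and of BAK1, BCL2L1 and PMAIP1 (MG63, siLARP4B) held in all 21. The members called with siLARP4B in PC3, 4 of 10, were least stable: 0 with DESeq2 and 2 with the replicate block. DESeq2 gave 4 at an unadjusted p under 0.05, BAK1, BBC3, BCL2L1 and MCL1. These leave out BCL2 and include MCL1, which the main edgeR fit did not call. With all libraries kept, edgeR called 3 or more, the replicate block apart. Fewer were called without any 1 siControl or siLARP4B library of PC3. Without PC3 siLARP4B replicate 1 the log2 changes were -0.24 for BAK1, 0.30 for BBC3, -0.33 for BCL2 and -0.16 for BCL2L1. Between the siRNAs in PC3, 2 to 4 members were called with a library left out, the 2 without PC3 siLARP4B replicate 1. For the siLARP4B difference between lines, 2 members were called with no expression filter, 2 with a mean FPKM of at least 1, 3 with only the libraries compared, 2 with limma, 3 with the longest transcript model and 1 to 3 with a library left out, against 1; the cause was not tested. The same-numbered libraries' deviations from their group means correlated at -0.027 to 0.049, so no shift shared by number was seen. A correlation over all genes tested cannot exclude that libraries of the same number were handled together. Scaling moved the median of all genes by at most 0.049. The PC3 levels of BBC3 and BIK rest on 149 fragments or fewer per library, which limits what they can show.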

Other observations

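All annotated transcript models of a gene were also compared, as log2 ratios of mean FPM against siControl, with no test since models share fragments. The models of BBC3 (4 models) lay between 0.66 and 0.68 with siLARP4A in PC3 and between 0.60 and 0.69 in MG63. Those of PMAIP1 (6 models) lay between 0.51 and 0.57 with siLARP4A in MG63, those of BCL2L1 (9 models) between -0.56 and -0.55 with siLARP4B in MG63, and those of BCL2L11 (18 models) between 0.42 and 0.57 with siLARP4A in PC3. BAK1 had 1 model. Other models agreed less, and those of BCL2L11 ran from -1.22 to 0.23 with siLARP4A in MG63, the widest range. The models of BCL2 (2 models) lay between -0.54 and -0.29 with siLARP4B in PC3 and between 0.02 and 0.31 with siLARP4A in MG63. Within libraries, BBC3 over BCL2L1 in FPKM was 0.0225 and 0.0280 with siControl in PC3, 0.0447 and 0.0380 with siLARP4A, and 0.0423 and 0.0349 in the siLARP4B libraries. The MG63 values were 0.165 and 0.185, 0.262 and 0.252, and 0.229 and 0.237, so every knockdown library stood above the siControl libraries of its line. In MG63 with siLARP4B, BBC3 itself did not rise (-0.11, not called), while BCL2L1 fell (-0.52). PMAIP1 over MCL1 was lower with siLARP4A in PC3 (0.181 and 0.187, against 0.213 and 0.230) and higher in MG63 (0.203 and 0.203, against 0.182 and 0.168). With siLARP4B the ratio was also higher in MG63 (0.209 and 0.202), and in PC3 it lay within the control range (0.222 and 0.215).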
